A study of Rattus norvegicus with 16 samples.

Results

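The genes described here are the organizers of the neuromuscular junction, the synapse between a motor axon and a muscle fibre. They were taken as a named list: Musk, Dok7, Rapsn, Lrp4, Agrn, Colq, Ache, Ncam1 and Runx1, which is 9 of the 17147 genes in the table. All 9 passed the filter for low counts, as did 11658 genes in all. Their RNA was measured in the supraspinatus, which belongs to the rotator cuff of the shoulder, in Sprague Dawley rats. The control group, here called 0 days, was not operated. The other 3 groups had their supraspinatus tendon torn through its full thickness on both sides and their suprascapular nerve, which supplies the muscle, interrupted by neurectomy, and were sampled 10, 30 or 60 days later. Each group had 4 libraries. There was no group with a tear alone or nerve injury alone, so the effects of tendon and nerve cannot be told apart. The labels do not say whether libraries of a group came from separate rats, so the p-values measure only the spread between these libraries. Age and sex were not among the labels used here.

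At the junction, agrin (Agrn) released by the nerve ending binds LRP4 (Lrp4) on the muscle membrane, and LRP4 activates the receptor kinase MuSK (Musk). DOK7 (Dok7) is the adaptor inside the fibre that MuSK needs for its activity, and rapsyn (Rapsn) anchors acetylcholine receptors in the clusters that result. Acetylcholinesterase (Ache) breaks down the transmitter and is held in the synaptic cleft by the collagen-like tail ColQ (Colq). NCAM1 (Ncam1), an adhesion molecule, and RUNX1 (Runx1), a transcription factor, are confined to few sites or low levels in innervated fibres and are classic markers of denervated muscle.

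Libraries held 17.2 to 39.9 M fragments, and all 4 libraries at 60 days (17.2 to 22.4 M) were smaller than every other library. Levels are given as CPM, the fragments of a gene per 1 M fragments after TMM scaling. They are not divided by gene length, so they rank libraries for 1 gene and not genes against each other. The 9 fibre marker genes found in the table were abundant in all libraries, as for skeletal muscle, but their summed level differed: 222754 to 245323 CPM at 0 days, then 66175 to 72281, 105515 to 148633 and 130148 to 153664 CPM with increasing time. The fibre markers did not all move alike. Mb had a mean of 12818 CPM at 0 days and 18159, 25772 and 17970 CPM at 10, 30 and 60 days. The other fibre markers were lower at 10 days, from 1.33-fold (Des) to 8.04-fold (Acta1). Myh2 was higher at 60 days, with a mean of 9141 CPM against 5913 CPM at 0 days. In bulk muscle, fewer cells of a type and less RNA per cell cannot be told apart. With library totals in place of TMM factors the median of all tested genes moved up by 0.66, 0.49 and 0.41 on the log2 scale at 10, 30 and 60 days against 0 days, and the share of called genes that were higher went from 53.1% to 87.4%, from 52.2% to 84.1% and from 50.7% to 82.7%. With upper-quartile factors that share was 62.2% at 30 days and 63.6% at 60 days. Between operated groups, library totals moved the median by -0.16 (30 against 10 days), -0.09 (60 against 30 days) and -0.25 (60 against 10 days), and the share of called genes that were higher went from 48.6% to 27.6%, from 45.3% to 26.3% and from 47.7% to 28.0%. Each direction given here is relative to the bulk of genes, and each member whose direction depends on this choice is named.

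A pair of libraries stood apart in these genes. Replicate 1 at 60 days had the highest Dok7, Rapsn, Ncam1 and Runx1 of its group and the lowest Lrp4, Agrn and Ache. Replicate 1 at 10 days had the highest Dok7 and Ache of its group and the lowest Lrp4. Results that turn on them are given with and without them.

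**Figure D1:**
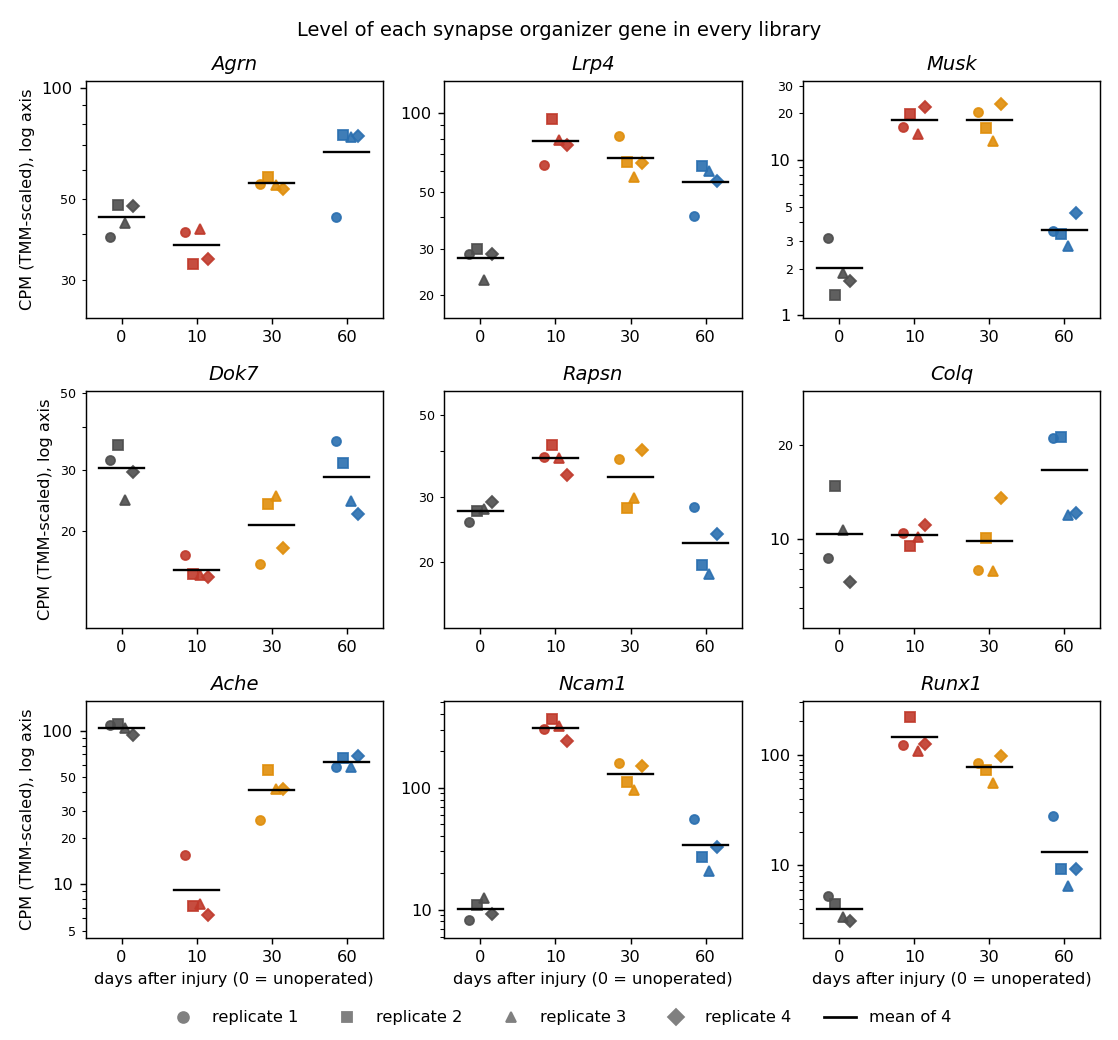
Level of each of the 9 genes in every library, as TMM-scaled CPM on a log axis (y) against days after injury (x, 0 = unoperated), with 1 symbol per library and a line at the mean of 4. Musk, Lrp4, Ncam1 and Runx1 sat above the 0-day libraries at 10 and 30 days, Ache sat below them at all 3 times, and Agrn ran from 37.3 CPM at 10 days to 66.9 CPM at 60 days.

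At 10 days against 0 days, 5 of 9 were called higher (Musk, Lrp4, Rapsn, Ncam1 and Runx1), 2 lower (Ache and Dok7) and 2 were not called (Agrn and Colq). With library totals, 7 were higher (Agrn and Colq added), 1 was lower (Ache) and 1 was not called (Dok7). A gene was called at an adjusted p under 0.05 in edgeR's quasi-likelihood test over all tested genes. Injury moved much of the transcriptome: 62.7% of all tested genes were called in this comparison, 33.3% higher and 29.4% lower. The 4 libraries of each group did not overlap for 7 of the 9 genes, against 59.0% of all tested genes. At 30 days the same split of 5 higher, 2 lower and 2 not called was found, with 6 genes without overlap. The background was 64.6% called (33.7% higher and 30.9% lower) and 60.2% without overlap. At 60 days 6 were higher, 1 was lower and 2 were not called, and 4 did not overlap, against 59.0% called (29.9% higher and 29.1% lower) and 50.0% without overlap. With library totals the counts were 6 higher, 1 lower and 2 not called at 30 days, and 6, 0 and 3 at 60 days. With TMM factors the member counts are thus close to a background in which most genes were called. The share of all tested genes called with library totals is not given here, so the counts with library totals have no such background. The sizes of single changes were not ranked against those of all tested genes. The median log2 fold change over the 9 genes was 0.47, 0.31 and 0.67 at 10, 30 and 60 days. Over all tested genes it was 0.06, 0.05 and 0.04. These are medians of signed values, in which rises and falls offset each other. In the joint test of the 4 groups all 9 were called, beside 84.7% of all tested genes; without replicate 1 or without replicate 2 at 60 days the count was 8.

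Promoter sequence from RefSeq (assembly GRCr8) was matched for 5 of the 9 genes, Musk, Dok7, Agrn, Ache and Runx1. The 250 bases before the annotated start are printed for Musk and Runx1, which rose, and for Ache, which fell most, because junction genes are known to carry E-boxes (letters CANNTG, bound by myogenic regulators) and because Runx1 is itself a member, whose sites were searched too (RUNX sites, letters TGTGGT or TGCGGT). Capitals mark every match, searched on both strands. The Musk window lies at chr5:77853486-77853735 on the + strand, the Runx1 window at chr11:45421326-45421575 on the - strand and the Ache window at chr12:25050411-25050660 on the - strand, and each is written 5′ to 3′ along its gene.
Musk: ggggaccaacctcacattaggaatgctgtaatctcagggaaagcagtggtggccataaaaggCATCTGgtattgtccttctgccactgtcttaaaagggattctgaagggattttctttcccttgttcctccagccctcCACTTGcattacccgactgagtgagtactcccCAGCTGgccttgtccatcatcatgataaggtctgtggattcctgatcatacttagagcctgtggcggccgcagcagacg
Runx1: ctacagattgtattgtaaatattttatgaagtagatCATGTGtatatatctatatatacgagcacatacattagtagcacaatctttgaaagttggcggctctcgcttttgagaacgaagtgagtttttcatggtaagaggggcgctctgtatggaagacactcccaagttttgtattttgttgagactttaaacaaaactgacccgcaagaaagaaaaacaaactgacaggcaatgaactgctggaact
Ache: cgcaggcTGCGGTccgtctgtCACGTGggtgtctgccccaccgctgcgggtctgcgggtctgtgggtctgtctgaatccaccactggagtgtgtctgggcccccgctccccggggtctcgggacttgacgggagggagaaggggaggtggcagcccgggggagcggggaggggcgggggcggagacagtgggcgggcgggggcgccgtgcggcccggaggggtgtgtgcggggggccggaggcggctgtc
The Musk window held 3 E-boxes, with CATCTG 188 bases, CACTTG 111 bases and CAGCTG 79 bases before the start. The Runx1 window held 1, CATGTG, 214 bases before it. The Ache window held 1 E-box, CACGTG, 229 bases before its start, and 1 RUNX site, TGCGGT, 243 bases before it. An E-box was found in 65.5% of the 33469 promoter windows of the same length, its form CAGCTG (counted within the E-boxes) in 12% and TGCGGT in 5.02%; TGTGGT was in 14.5% and in none of the 5 member windows. The N-box, letters CCGGAA, was in 12.6% of windows and in none of the 5. Dok7 had 1 E-box, 244 bases before its start, and Agrn had none. Of the printed windows 176 bases for Musk, 198 for Ache and all 250 for Runx1 lie inside the gene's own annotated span, so other annotated starts lie further upstream. These matches describe letters only, and no binding was measured here.

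Musk, the receptor kinase at the centre of the pathway, was about 9-fold higher at 10 and 30 days and was 1.81-fold higher at 60 days. Its 4 libraries at 0 days were at 3.15, 1.36, 1.87 and 1.68 CPM. At 10 days they were at 16.3, 19.8, 14.7 and 22.0 CPM, and at 30 days at 20.5, 16.2, 13.2 and 23.0 CPM. Every library at these times lay well above every unoperated one. At 60 days the values were 3.50, 3.37, 2.81 and 4.53 CPM, and the lowest of them was below the highest unoperated library. The log2 fold change was 3.20 ± 0.24 (SE; 9.22-fold, adjusted p = 1.35e-08) at 10 days and 3.21 (9.23-fold, adjusted p = 1.99e-08) at 30 days. At 60 days it was 0.86 (1.81-fold, adjusted p = 0.00994). Musk fell from 30 to 60 days by 2.35 on the log2 scale (5.09-fold, adjusted p = 7.03e-06), while 10 and 30 days differed by 0.00, a value whose sign changed with the setting. The low unoperated level rests on few fragments: 35 were counted in replicate 4 at 0 days.

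Lrp4, the agrin receptor that acts with MuSK, was also higher at all 3 times, by less and with a slower return. It was at 28.9, 30.1, 23.0 and 28.8 CPM at 0 days and at 63.5, 95.2, 79.4 and 75.5 CPM at 10 days. At 30 days it was at 82.0, 65.0, 57.1 and 64.7 CPM, and at 60 days at 40.3, 62.5, 59.9 and 54.8 CPM. No operated library reached down to the unoperated range at any time. The rise was 1.50 ± 0.15 (log2, SE; 2.83-fold, adjusted p = 3.22e-07) at 10 days, 1.28 (2.43-fold, adjusted p = 2.36e-06) at 30 days and 0.97 (1.96-fold, adjusted p = 5.21e-05) at 60 days. Lrp4 was lower at 60 than at 10 days by 0.53 on the log2 scale, with no overlap between the groups. Neighbouring times were not told apart (log2 fold change -0.22 at 30 against 10 days and -0.31 at 60 against 30 days, adjusted p = 0.147 for the latter); with the 2 libraries that stood apart left out, the first of these became -0.31 with an adjusted p of 0.042.

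Agrn, the ligand, took another course from its receptor: its mean was lowest at 10 days and highest at 60 days. It was at 39.4, 47.9, 43.0 and 47.9 CPM at 0 days and at 40.5, 33.2, 41.4 and 34.2 CPM at 10 days, ranges that overlap. At 30 days the libraries lay close together at 54.9, 57.4, 54.5 and 53.2 CPM, all above the unoperated ones. At 60 days 3 libraries were at 74.7, 73.8 and 74.3 CPM and replicate 1 was at 44.7 CPM, inside the unoperated range. The log2 fold change was -0.26 at 10 days (adjusted p = 0.105), and with library totals it turned to 0.40 (adjusted p = 0.0189). In a fit of only the groups compared it was called lower (-0.28, adjusted p = 0.0215). The log2 fold change was 0.30 at 30 days (adjusted p = 0.0546) and 0.58 at 60 days (1.50-fold, adjusted p = 0.00139). The 30-day value was called with library totals (0.80, adjusted p = 0.000129) and upper-quartile factors (0.43, 0.0154). It was also called with a filter at a mean of at least 1 CPM (0.34, adjusted p = 0.0396) and in a fit of only the groups compared (0.30, 0.00412). Between operated groups Agrn rose by 0.56 (log2; 1.47-fold, adjusted p = 0.00246) from 10 to 30 days, with no overlap. Replicate 1 at 60 days decided several of these calls: without it the 10-day value was -0.26 (adjusted p = 0.00969), the 30-day value 0.30 (adjusted p = 0.00327) and the change from 30 to 60 days 0.43 (adjusted p = 0.0016), beside 0.28 (adjusted p = 0.139) with it. The table counts fragments per gene, so the splice forms of agrin made by nerve and by muscle are not separated. Of the 10 motor neuron and axon markers, Slc18a3, Isl1 and Mnx1 were at 0 in all 16 libraries and Chat stayed at or below 0.409 CPM, and the list summed to 1.14 to 2.59 CPM without operation and 5.44 to 10.4, 2.40 to 9.18 and 1.17 to 6.27 CPM at 10, 30 and 60 days. Most of that sum after injury was 1 gene, Nefm, a neurofilament, at a mean of 0.697 CPM without operation and 6.62 CPM at 10 days. Nefm was called higher at 10 days, and so was Nefh, which went from a mean of 0.032 to 0.428 CPM. Nefl went from a mean of 0.537 to 0.103 CPM but did not pass the filter and was not tested. Snap25, at 0.326 and 0.276 CPM, was not called. The part of motor axons in the level of Agrn was not tested.

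Dok7, the adaptor that MuSK requires, went the other way from its kinase. It was at 32.0, 35.5, 24.4 and 29.5 CPM at 0 days and at 17.0, 15.0, 14.9 and 14.7 CPM at 10 days, with every 10-day library below every unoperated one. At 30 days it was at 16.05, 23.8, 25.2 and 17.9 CPM and at 60 days at 36.2, 31.5, 24.3 and 22.3 CPM, and both groups overlapped the unoperated range. Dok7 fell by 0.98 ± 0.17 (log2, SE; 1.97-fold, adjusted p = 8.11e-05) at 10 days and by 0.55 (1.46-fold, adjusted p = 0.00797) at 30 days. With library totals these became -0.32 (adjusted p = 0.052) and -0.07, neither of them called. At 60 days the log2 fold change was -0.09 (adjusted p = 0.663), and it turned to 0.31 with library totals and 0.05 with upper-quartile factors. From 10 to 60 days Dok7 rose by 0.89 (log2; 1.86-fold) with no overlap. The step from 10 to 30 days was 0.43 (adjusted p = 0.0421). That call was lost without replicate 1 or 4 at 0 days, replicate 2, 3 or 4 at 10 days, or replicate 2 or 3 at 30 days (log2 fold changes 0.32 to 0.43, adjusted p 0.0507 to 0.142), and with library totals (0.26). It was also lost with limma-voom (0.41, adjusted p = 0.0528) and without a filter for low counts (0.42, 0.0565). The letter in the library titles (L or R) as covariate removed it too (0.40, adjusted p = 0.0964).

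Rapsn, the receptor anchor, rose by 1.39-fold at 10 days. It was at 25.6, 27.4, 27.8 and 29.1 CPM at 0 days and at 38.5, 41.5, 38.4 and 34.5 CPM at 10 days, without overlap. At 30 days 2 libraries (38.1 and 40.3 CPM) were at the 10-day level 1 (27.9 CPM) was inside the unoperated range and 1 (29.8 CPM) just above it. At 60 days the values were 28.1, 19.5, 18.5 and 23.8 CPM, with 3 of 4 below every unoperated library. The log2 fold change was 0.47 ± 0.13 (SE; 1.39-fold, adjusted p = 0.0043) at 10 days, 0.31 (1.24-fold, adjusted p = 0.0481) at 30 days and -0.29 (adjusted p = 0.0722) at 60 days, the last turning to 0.12 with library totals and reaching an adjusted p of 0.00955 at -0.41 without replicate 1 at 60 days. The 30-day call is marginal: it was lost without replicate 1, 2 or 3 at 0 days, without any single library at 10 days, and without replicate 1 or 4 at 30 days (log2 fold changes 0.21 to 0.32, adjusted p 0.0522 to 0.172), and with RLE factors, DESeq2 or limma-voom (0.28 in each). Rapsn then fell from 30 to 60 days by 0.59 on the log2 scale (1.51-fold, adjusted p = 0.00437).

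Ache, the cholinesterase, had the largest fall of the 9 genes. It was at 109, 111, 104 and 94.0 CPM at 0 days and at 15.5, 7.23, 7.48 and 6.30 CPM at 10 days. At 30 days the libraries stood at 26.1, 55.4, 41.5 and 42.0 CPM and at 60 days at 58.0, 66.3, 58.5 and 68.9 CPM. All operated libraries were below all unoperated ones, and the 3 operated groups followed each other upward without overlap. Ache fell by 3.52 ± 0.26 (log2, SE; 11.4-fold, adjusted p = 1.66e-08) at 10 days, by 1.34 (2.53-fold, adjusted p = 0.000153) at 30 days and by 0.73 (1.66-fold, adjusted p = 0.014) at 60 days. With library totals the 60-day value was -0.32 (adjusted p = 0.225) and no longer called. From 10 to 30 days Ache rose by 2.18 (log2; 4.52-fold, adjusted p = 6.83e-06). The step from 30 to 60 days was 0.61 (adjusted p = 0.0759). It was called without replicate 1 at 10 days (0.61, adjusted p = 0.0137) or without replicate 2 at 30 days (0.78, adjusted p = 0.0305). With all libraries this step was called with DESeq2 (0.63, adjusted p = 0.0379) and limma-voom (0.65, adjusted p = 0.0273). The same held with the letter in the titles (L or R) as covariate (0.87, adjusted p = 0.00881), a letter spread unevenly over the groups. Red blood cells also carry acetylcholinesterase. The sum of the 5 erythroid markers was 694 to 2312 CPM without operation and 238 to 312, 326 to 822 and 427 to 1037 CPM at 10, 30 and 60 days. Their part in the fall of Ache was not tested. In GRCr8 the Ache and Lrp4 spans each overlap 2 other annotated genes and those of Musk and Colq 1, and without stated strandedness their reads cannot be told apart.

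Colq, the tail that anchors acetylcholinesterase, did not share that course. It ranged from 7.28 to 14.7 CPM at 0 days, from 9.53 to 11.1 CPM at 10 days and from 7.92 to 13.5 CPM at 30 days, groups that overlapped throughout. Its log2 fold change was -0.01 at 10 days (adjusted p = 0.972) and -0.08 at 30 days (adjusted p = 0.787), and with library totals these turned to 0.65 (adjusted p = 0.0173) and 0.42. At 60 days it was at 21.0, 21.3, 11.9 and 12.1 CPM, 2 libraries above the unoperated range and 2 within it. The 60-day rise was 0.67 (log2; 1.60-fold, adjusted p = 0.0233). It was not called without replicate 1 or 4 at 0 days, or without replicate 1 or 2 at 60 days (log2 fold changes 0.53 to 0.62, adjusted p 0.0582 to 0.0822).

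Ncam1, the adhesion molecule, had one of the 2 largest rises of the list. It was at 8.27, 10.9, 12.4 and 9.15 CPM at 0 days and at 300, 367, 318 and 240 CPM at 10 days. At 30 days it was at 160, 112, 95.7 and 151 CPM, and at 60 days at 55.8, 27.3, 20.6 and 32.5 CPM. The 4 groups did not overlap anywhere, and each operated group lay below the one before it. The log2 fold change was 4.91 ± 0.29 (SE; 30.0-fold, adjusted p = 2.12e-09) at 10 days, 3.67 (12.7-fold, adjusted p = 3.05e-08) at 30 days and 1.74 (3.34-fold, adjusted p = 5.58e-05) at 60 days. Ncam1 fell by 1.24 (log2; adjusted p = 0.000729) from 10 to 30 days and by 1.93 (adjusted p = 0.000137) from 30 to 60 days. Schwann cells and satellite cells can also express Ncam1. The 10 Schwann cell markers summed to 65.9 to 102 CPM in the unoperated libraries and to 32.5 to 57.4, 58.6 to 101 and 113 to 244 CPM after 10, 30 and 60 days. The 5 satellite cell markers summed to 35.1 to 48.9 CPM without operation and 25.4 to 38.4, 33.9 to 41.4 and 32.1 to 41.8 CPM at 10, 30 and 60 days. Single satellite cell markers went different ways: at 10 days Cdh15 fell from a mean of 32.2 to 15.4 CPM and Myf5 rose from 2.45 to 8.37 CPM (3.41-fold). The part of these cells in the level of Ncam1 was not tested.

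Runx1, the transcription factor, had the largest fitted rise of the 9 genes at 10 and 30 days, while at 60 days it was level with Ncam1. It was at 5.23, 4.44, 3.39 and 3.11 CPM at 0 days and at 123, 217, 108 and 125 CPM at 10 days. At 30 days it was at 83.3, 72.2, 55.4 and 97.8 CPM. At 60 days 3 libraries were at 9.31, 6.55 and 9.29 CPM and replicate 1 was at 27.9 CPM. Every operated library was above every unoperated one. The log2 fold change was 5.15 ± 0.43 (SE; 35.5-fold, adjusted p = 5.32e-08) at 10 days, 4.26 (19.1-fold, adjusted p = 4.2e-07) at 30 days and 1.73 (3.32-fold, adjusted p = 0.00206) at 60 days. Without replicate 1 at 60 days the last value was 1.06 (adjusted p = 0.00906), and the fall from 30 to 60 days became -3.20 in place of -2.53 (adjusted p = 0.000299 with all libraries). From 10 to 30 days Runx1 fell by 0.89 on the log2 scale (adjusted p = 0.0422). It was not called without replicate 2 at 0 days, replicate 2 at 10 days, or replicates 1, 2 or 3 at 30 days (log2 fold changes -0.93 to -0.62, adjusted p 0.0525 to 0.164). With all libraries this fall was not called with DESeq2 (-0.89, adjusted p = 0.0594) or without a filter for low counts (-0.91, 0.0726). Nor was it called with the title letter as covariate (-0.76, adjusted p = 0.122). Leukocytes also express Runx1. The 10 leukocyte markers found in the table summed to 17.7 to 27.9 CPM without operation and 64.7 to 88.7, 82.1 to 105 and 53.7 to 120 CPM at 10, 30 and 60 days, and their part in the level of Runx1 was not tested.

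**Figure D2:**
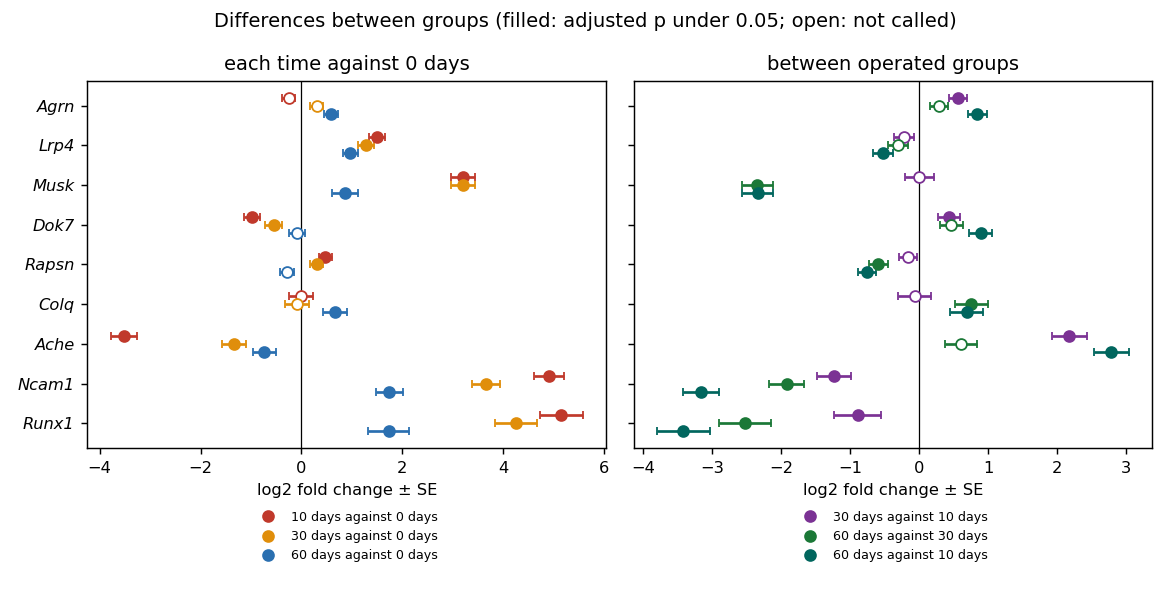
Log2 fold change with its SE (x) for each of the 9 genes (y) in the 3 comparisons against 0 days (left) and the 3 comparisons between operated groups (right), where filled points had an adjusted p under 0.05 and open points did not. Runx1 and Ncam1 lie farthest to the right at 10 days (5.15 and 4.91) and Ache farthest to the left (-3.52); with library totals the other sign is taken by Agrn and Colq at 10 days, Colq at 30 days, Dok7 and Rapsn at 60 days and Musk at 30 against 10 days.

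Between operated groups the largest contrast was 60 against 10 days, in which all 9 genes were called and none overlapped: Dok7, Agrn, Colq and Ache were higher at 60 days and Musk, Rapsn, Lrp4, Ncam1 and Runx1 lower. The background was 61.1% of tested genes called (29.1% higher and 31.9% lower) and 51.2% without overlap. Without replicate 1 or without replicate 2 at 60 days the call of Colq was lost (log2 fold changes 0.55 and 0.54, adjusted p = 0.0681 and 0.0722), as it was with library totals (0.43). From 10 to 30 days 3 genes rose (Dok7, Agrn and Ache), 2 fell (Ncam1 and Runx1), and Musk, Rapsn, Lrp4 and Colq were not called, with 4 genes without overlap. Here 47.3% of tested genes were called (23.0% higher and 24.3% lower) and 43.8% did not overlap. From 30 to 60 days 1 gene rose (Colq, log2 fold change 0.75, adjusted p = 0.0318) and 4 fell (Musk, Rapsn, Ncam1 and Runx1), again with 4 genes without overlap, against 22.6% called (10.3% higher and 12.4% lower) and 20.1% without overlap. That Colq call was lost without replicate 1, 2 or 3 at 30 days or replicate 1 or 2 at 60 days (log2 fold changes 0.61 to 0.76, adjusted p 0.0551 to 0.105). With all libraries it was lost with the title letter as covariate (0.61, adjusted p = 0.102). A fit of only the groups compared did not give it either (0.75, adjusted p = 0.0699). Dok7 was not called in this step (0.46, adjusted p = 0.0539). It was called without replicate 3 at 0 days, replicate 2 or 3 at 30 days, or replicate 3 or 4 at 60 days (0.47 to 0.58, adjusted p 0.0237 to 0.0488). With all libraries Dok7 was called with RLE factors (0.49, adjusted p = 0.0457), upper-quartile factors (0.48, 0.0426) and DESeq2 (0.49, 0.0275). The filter at a mean of at least 1 CPM also gave a call (0.47, adjusted p = 0.0496). The comparisons share libraries with each other, so their counts are not independent. The median log2 fold changes of the 9 genes were -0.07 (30 against 10 days), -0.31 (60 against 30 days) and -0.53 (60 against 10 days), beside 0.03, -0.01 and -0.01 over all tested genes.

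Ratios of 2 genes within a library do not depend on how libraries are scaled, and 5 partner pairs were compared in this way. Each value is a mean of 4 log2 ratios of fragments, not corrected for gene length, so only differences between groups are read. The ratio of the adaptor Dok7 to its kinase Musk was 3.96 ± 0.58 (SD, n = 4) in unoperated muscle, and -0.23 ± 0.32, 0.19 ± 0.66 and 2.99 ± 0.48 after 10, 30 and 60 days. The difference from 0 days was -4.18 at 10 days (18.2-fold lower) and -3.77 at 30 days (13.6-fold lower), in each case without overlap (two-sided exact permutation test, p = 0.0286, the smallest that 4 against 4 allow, adjusted p = 0.0317 over 20 tests). At 60 days the difference was -0.97 and the groups overlapped (exact permutation p = 0.0571, adjusted p = 0.0602). The ratio of Lrp4 to Musk differed from 0 days by -1.72 at 10 days and by -1.93 at 30 days without overlap, and by 0.10 at 60 days (exact permutation p = 0.771).

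The ratio of the tail Colq to the enzyme Ache was higher by 3.66 (12.6-fold) at 10 days, by 1.33 at 30 days and by 1.41 at 60 days. The ratio of the anchor Rapsn to the receptor subunit Chrna1 differed by -5.53 after 10 days (46.3-fold lower), -5.10 after 30 days and -1.82 after 60 days. The ratio of the ligand Agrn to its receptor Lrp4 differed by -1.75, -0.96 and -0.40 at the 3 times. None of these 9 comparisons overlapped, and each had the smallest p the exact permutation test allows (p = 0.0286, adjusted p = 0.0317). From 10 to 60 days all 5 ratios moved back without overlap: Dok7 to Musk by 3.22, Lrp4 to Musk by 1.82, Colq to Ache by -2.25, Rapsn to Chrna1 by 3.72 and Agrn to Lrp4 by 1.35, with the same exact permutation p.

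**Figure D3:**
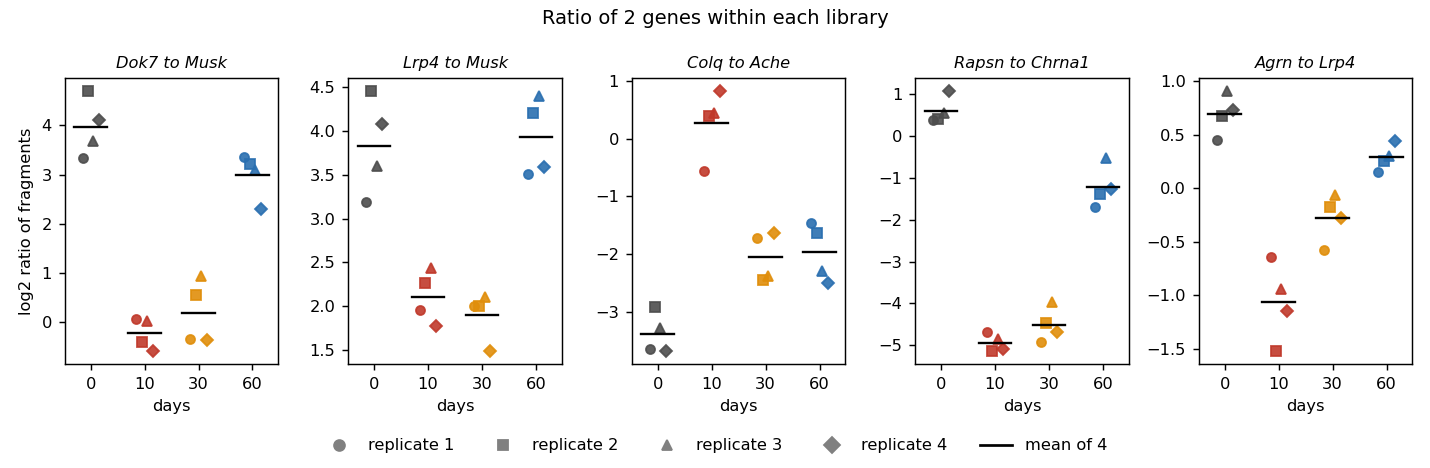
Log2 ratio of fragments of 2 genes within each library (y) against days after injury (x), with 1 symbol per library and a line at the mean of 4. Dok7 to Musk fell from 3.96 at 0 days to -0.23 at 10 days and stood at 2.99 at 60 days, and Colq to Ache had its highest values at 10 days.

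The organizers cluster acetylcholine receptors, whose 5 subunits were measured beside them. All 5 were higher at 10 days and at 30 days and 4 of 5 at 60 days, where Chrnd had a log2 fold change of 0.36 (adjusted p = 0.236; 0.77 with an adjusted p of 0.0242 with library totals). Of all tested genes 33.3%, 33.7% and 29.9% were higher at 10, 30 and 60 days. The median log2 fold change of the 5 subunits was 4.80, 3.96 and 1.21 at the 3 times. Chrng, the subunit of fetal receptors, changed by 7.11 at 10 days, 7.58 at 30 days and 2.54 at 60 days, and Chrne, which replaces it in adult receptors, by 1.36, 1.76 and 1.21. The Chrng libraries ranged from 98.0 to 150 CPM at 10 days and from 71.8 to 372 CPM at 30 days, with replicate 1 highest. These 2 groups overlapped. The unoperated level of Chrng rests on 17 to 25 fragments per library. Chrna1 was at 19.7, 20.8, 19.0 and 13.9 CPM at 0 days and at 980, 1461, 1106 and 1177 CPM at 10 days, a change of 6.01 on the log2 scale beside 0.47 for its anchor Rapsn. Replicate 1 at 10 days had the lowest level of its group for all 5 subunits. Replicate 1 at 60 days had the highest Chrna1 and Chrnb1 and the lowest Chrne of its group.

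Of the 29 signalling partners listed for agrin, LRP4 and MuSK, 27 were tested: 11 were higher and 6 lower at 10 days, 11 and 12 at 30 days, and 10 and 11 at 60 days. With library totals they were 23 and 0, 14 and 8, and 15 and 6. With TMM factors 33.3% of all tested genes were higher and 29.4% lower at 10 days. The shares were 33.7% and 30.9% at 30 days, and 29.9% and 29.1% at 60 days. With library totals 87.4%, 84.1% and 82.7% of all called genes were higher at the 3 times. These are shares of called genes, so they are no background for counts out of tested genes. Erbb2, a neuregulin receptor, had the largest rise among them at 10 days (3.59), and was at 4.25 at 30 days and 2.63 at 60 days. Rhoa, a small GTPase, rose by 0.88 and Macf1, a linker of microtubules and actin, by 0.84 at 10 days. Dnaja3, a co-chaperone that binds MuSK, fell by 0.67 at 10 days (log2 fold change -0.01 with library totals), while the falls of the phosphatases Ptprs (by 0.62) and Ptpn11 (by 0.51) turned to 0.03 and 0.14 with library totals.

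Of the basal lamina and cholinesterase partners 9 genes were tested, with 4 higher and 3 lower at 10 days, 5 and 1 at 30 days, and 6 and 1 at 60 days (with library totals 4 and 1, 7 and 1, and 7 and 1). Over all tested genes, with TMM factors, 33.3%, 33.7% and 29.9% were higher and 29.4%, 30.9% and 29.1% lower at the 3 times. For library totals only the share higher among called genes is given (87.4%, 84.1% and 82.7%), not a share of tested genes. Lama5, a laminin chain, rose by 2.70 at 10 days, 1.88 at 30 days and 0.63 at 60 days. Bgn, the proteoglycan biglycan, rose by 2.28 and Thbs4, a thrombospondin, by 1.08 at 10 days. Prima1, which anchors acetylcholinesterase in membranes where ColQ is not used, fell by 1.43 at 10 days (log2 fold change -0.76, adjusted p = 0.115, with library totals). Vtn, vitronectin, fell by 1.13. Lamb2, the laminin chain typical of the synaptic cleft, fell by 0.76 at 10 days and rose by 0.52 at 60 days; with library totals the 10-day fall was not called (log2 fold change -0.10, adjusted p = 0.441).

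Of the 10 tested genes of the subsynaptic cytoskeleton and membrane, 2 were higher and 4 lower at both 10 and 30 days, and 3 were higher and 3 lower at 60 days (with library totals 5 and 1, 6 and 3, and 5 and 3). Ank3, an ankyrin, fell by 0.86 and Plec, the linker protein plectin, by 0.74 at 10 days, and neither was called with library totals (log2 fold changes -0.21 and -0.09, adjusted p = 0.067 and 0.541). Of the 8 tested partners and relatives of NCAM1 and RUNX1, 4 were higher and 1 lower at 10 and at 30 days, and 6 were higher and 1 lower at 60 days (with library totals 6 and 0 at each time). Beside both lists, with TMM factors, 33.3%, 33.7% and 29.9% of all tested genes were higher at the 3 times. The shares lower were 29.4%, 30.9% and 29.1%. With library totals 87.4%, 84.1% and 82.7% of all called genes were higher, which again are not shares of tested genes. Fgfr4, a fibroblast growth factor receptor, rose by 0.96 at 10 days. Cbfb, the partner subunit of RUNX1, had a log2 fold change of 0.32 at 10 days, -0.38 at 30 days (0.12 with library totals) and -0.51 at 60 days (-0.10, not called, with library totals), while Runx1 was higher at all 3 times.

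**Figure D4:**
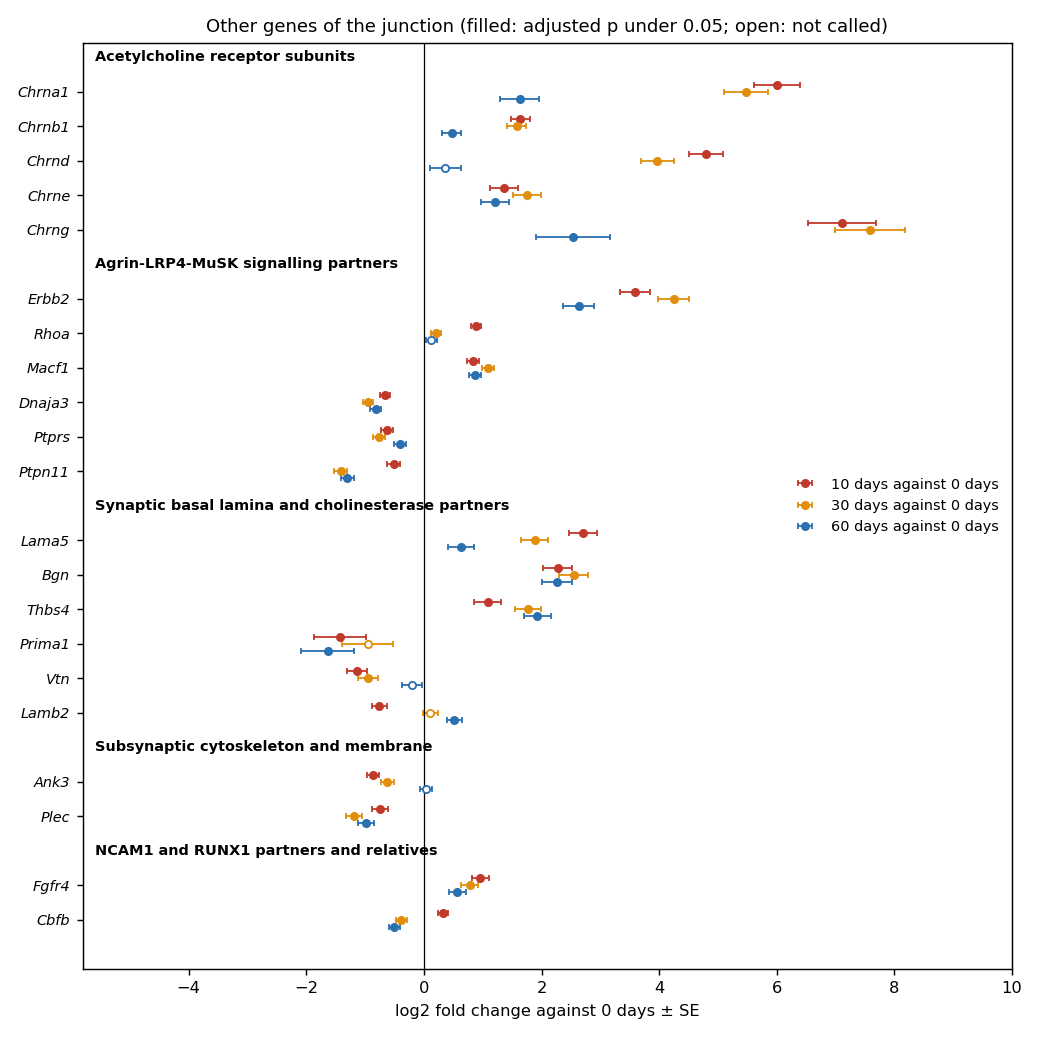
Log2 fold change against 0 days with its SE (x) at 10, 30 and 60 days for the receptor subunits and for the genes of 4 other lists that are named in the text (y), where open points had an adjusted p of 0.05 or more. Chrng lies farthest to the right, with its fitted value at 30 days beyond the 7.11 at 10 days. Its libraries at 30 and 10 days overlapped (71.8 to 372 and 98.0 to 150 CPM). Chrna1 comes next (6.01 at 10 days). With library totals the 10-day values of Ptprs and Ptpn11, the 30-day value of Cbfb and the 60-day value of Vtn take the other sign.

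The likeness of courses was measured as the root mean square difference between the 4 group means of log2 CPM, each centred on the gene's own mean, over 16 libraries and 8226 candidate genes, and is given as a description. Among the members themselves, Agrn and Colq (0.24) and Ncam1 and Runx1 (0.28) were the closest pairs, and Dok7 and Agrn (0.33) came next. The genes closest to Musk were Irx3 (0.23), MGC105649 (0.24) and Ppfia4 (0.25). Those closest to Ncam1 were Nrcam (0.24), Sirpa (0.28) and Adam19 (0.31), and Adam19 was also the closest to Runx1 (0.29), followed by Mt1a (0.32) and Adap2 (0.33). Ache was most like Eno3 (0.11), Ankrd2 (0.13) and Acox2 (0.15). The other 5 members had closer neighbours: Agrn lay 0.0095 from Chkb, Dok7 0.017 from Arhgap21, Rapsn 0.025 from Ctu1, Lrp4 0.030 from Enc1 and Colq 0.041 from Fam134b.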

How the data were processed

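Fragments were counted in 16 libraries (4 groups of 4, grouped by the time in the labels) made with a TruSeq mRNA kit. The authors deposited expected counts, raw fragments per gene named by symbol; the submitters' processing notes name bcl2fastq 1.8.4, FastQC, TopHat2 2.0.9, Bowtie2 2.1.0.0, Cufflinks, Cuffdiff 2.1.1 and build rn5. Strandedness and annotation were not given in the sources used here, so reads of overlapping genes cannot be told apart. Of the 17147 genes, 233 had a fractional value, and values were rounded. PCR copies are not independent molecules, so counting error understates the uncertainty.

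All 16 libraries entered 1 edgeR 4.0.16 quasi-likelihood model (R 4.3.3; TMM factors, robust estimation, filterByExpr by group, no covariate), fitted over 11658 genes with Benjamini-Hochberg adjustment and a threshold of 0.05. Ratios within libraries used a pseudocount of 0.5 fragments and two-sided exact permutation tests (scipy 1.17.1), adjusted over 20 tests. The fit was tested on simulated data for 10 days against 0 days: the test found 159 of 200 genes changed 2-fold, called 10 unchanged genes among 11511 tested, and made 0 calls where nothing changed. Only those 200 genes changed there, as many up as down, while 62.7% of tested genes were called in the real comparison. The simulation therefore does not show the error rates under so broad a change. Alternatives were RLE and upper-quartile factors, library totals, DESeq2 1.42.0, limma-voom (limma 3.58.1), no filter, a mean of at least 1 CPM, fits of the 2 groups compared, no robust estimation, an adjusted p under 0.01, the column suffix as a replicate block, the title letter (L or R, meaning not stated) as covariate, and each library left out in turn. The title letters were not balanced over the groups. At 10 days only replicate 1 had L, and at 60 days only replicate 4. At 30 days only replicate 1 had R. Letter and time are thus partly confounded in the fit with this covariate. Leaving out 2 libraries together, and the check of the other junction genes with library totals, were added after seeing the data.

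All 9 members are named, as are the 5 receptor subunits. From each other list of junction genes up to 3 rises and 3 falls at 10 days against 0 days are named, the largest called with a mean of at least 5 CPM; some genes that this rule picks are not reported here. For each member the 3 most alike genes were found. The members and lists were chosen with earlier results of these data known. Lama2, Lama4, Nid1, Hspg2, Dtna, Syne1 and Ank2 were not analysed here. Promoter windows came from RefSeq GRCr8, the counts from rn5.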

Additional observations from a re-analysis of the deposited data

Results flagged for a closer look

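In 5 of the 36 sets of 4 libraries examined (9 genes in 4 groups), 1 library lay far from the other 3, measured as its gap to the nearest of them over the whole range, beyond the limit set for 4 values. Chance gives about 1 in 20. At 10 days replicate 1 had the highest Dok7 (17.0 CPM, the others at most 15.0) and the highest Ache (15.5 CPM, the others at most 7.48), and replicate 2 the highest Runx1 (217 CPM). At 60 days replicate 1 had the lowest Agrn (44.7 CPM) and the highest Runx1 (27.9 CPM).

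The change against 0 days differed between 10 and 60 days for all 9 genes in edgeR's test of that difference, which is the comparison of 60 with 10 days, where 61.1% of all tested genes were called. The log2 differences were -2.35 for Musk, 0.89 for Dok7, -0.76 for Rapsn, -0.53 for Lrp4, 0.84 for Agrn, 0.68 for Colq, 2.78 for Ache, -3.17 for Ncam1 and -3.42 for Runx1.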

How the results depend on the processing

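Of the 54 values (9 genes in 6 comparisons), 42 kept direction and call with library totals, 46 with the title letter as covariate, 44 without the 2 libraries that stood apart and 47 to 54 under the other 10 settings. From 10 to 30 days 3 members in place of 5 were called without a filter, at an adjusted p under 0.01 and with the title letter, and 3 to 5 when libraries were left out in turn. From 30 to 60 days the count of all genes called was 2636, 1530 in a fit of those 2 groups and 1244 at an adjusted p under 0.01.

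Signs turned in several values, and not all of these were near 0. With TMM factors Agrn was -0.26 at 10 days and Rapsn -0.29 at 60 days. With library totals the turned values against 0 days were Agrn 0.40 and Colq 0.65 (10 days), Colq 0.42 (30 days), and Dok7 0.31 and Rapsn 0.12 (60 days). Agrn and Colq at 10 days were then called higher (edgeR's test, adjusted p = 0.0189 and 0.0173). Musk at 30 against 10 days turned to -0.15. With upper-quartile factors Colq turned to 0.047 and 0.044 (10 and 30 against 0) and Dok7 to 0.051 (60 against 0). Colq at 10 days was 0.011 with limma-voom and 0.0041 with a mean of at least 1 CPM; with the title letter it was 0.017 at 30 days and 0.062 at 30 against 10 days. Musk at 30 against 10 days was -0.019 with limma-voom, -0.013 without a filter, -0.010 in the 2 groups, -0.048 with the title letter and -0.049 without the 2 libraries. Leaving out each library gave Colq -0.14 to 0.22 (10 against 0), -0.26 to 0.15 (30 against 0) and -0.25 to 0.022 (30 against 10), Dok7 -0.23 to 0.038 (60 against 0), Musk -0.13 to 0.13 (30 against 10) and Lrp4 to Musk -0.12 to 0.30 (60 against 0). The cause was not tested.

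Column suffixes did not pair the libraries (mean r of same-suffix deviations -0.107 to 0.0626). With the replicate block Rapsn at 30 days was 0.29 (adjusted p = 0.0533), Colq at 10 days 0.017 and Musk at 30 against 10 days -0.019; the other 51 values kept direction and call. Musk at 0 days (35 fragments in 1 library) is the value most limited by depth among the members.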
